A study of Rattus norvegicus with 9 samples.

Results

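Of the 530 tRNA-derived fragments listed in rat brain, 163 stood on 5 or more rows of every table, and 114 of these, or 21.5% of all fragments, are described here. The other 49 were left out by name or by position: 46 belonged to 5 runs of fragments that follow each other in the tables, and 3 more were named by their number. A row is 1 line of a table with a fragment's identifier, tag count and TPM (tags per 1000000 tags of the library). The rows of 1 fragment held identical values, so each fragment was counted once. The rule itself reads only the number of rows and the listed identifiers. Those identifiers were, however, picked with earlier results of these data known, and the fragments they leave out include the most abundant ones, so contrasts between members and other fragments below are partly set by the exclusions.

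The rats were male Sprague-Dawley, and the RNA came from brain tissue at the right globus pallidus on day 21. The ICH + BYHWD group (3 libraries) had an intracerebral haemorrhage and then received Buyang Huanwu Decoction, a herbal decoction of traditional Chinese medicine, by gavage at 4.36 g/kg once daily for 21 days. The ICH group (3 libraries) had the same haemorrhage, made by injecting 0.5 U of collagenase type VII, an enzyme that weakens vessel walls, in 2.5 µl of saline. The sham group (3 libraries) had 2.5 µl of saline alone. A collagenase bleed models the effects of blood in the tissue together with the enzyme's own action on vessels, and the injection wound is shared by the 3 groups. All animals were of 1 sex and were sampled at 1 time, and the labels give no age. They do not state whether the libraries are separate rats, and the p-values rest on library-to-library spread only. In bulk tissue, fewer cells of a type and less RNA per cell cannot be told apart.

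Transfer RNAs carry amino acids to the ribosome, and nucleases can cut them into shorter stable RNAs. Angiogenin cuts in the anticodon loop under stress and leaves the longer tiRNAs, while other cuts in the D loop or T loop leave the shorter tRFs. Fragments of both kinds have been reported to dampen translation, to bind Argonaute proteins like a microRNA, or to displace RNA-binding proteins, and tiRNAs are known to accumulate in brain tissue after injury. Mammalian genomes hold many near-identical copies of most tRNA genes. What the repeated rows stand for, and the sequence, length, parent tRNA and fragment type behind each identifier, are not stated in the labels or files used here, so members are given by identifier and no role is assigned to any of them.

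Library totals ran from 530827 to 1066616 tags, and the listed fragments held 71.2 to 80.6% of them. By group the totals were 683782 to 1002327 tags in ICH + BYHWD, 888167 to 1066616 in ICH and 530827 to 735460 in sham. Every ICH library was thus deeper than every sham library, and the part of depth in that comparison was not tested. The lowest value above 0 in a library was 134 to 152 TPM, or 76 to 149 tags, so a 0 was read as below a listing minimum and not as absence. Scaling factors set ICH 2 apart: its TMM factor was 0.647, against 0.856 to 1.18 in the other 8 libraries, and fold changes below are after this scaling and are not ratios of the TPM values. Where libraries are said to lie above or below others, or to overlap, TPM values without this scaling were compared. That order can change after scaling.

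The members took up 1027 of the 2122 rows of a table, or 48.4%, on 5 to 34 rows each (median 8, against a median of 2 and a highest of 37 over all 530 fragments). Most of them, 93, stood on 5 to 10 rows, and 21 stood on 11 or more. In 81 members (71.1%) a value above 0 was listed in all 9 libraries, against 311 of all 530 fragments (58.7%). The other 33 members were at 0 in at least 1 library, and 6 of them were listed in only 1 or 2 libraries.

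Levels spread widely at most numbers of rows. The median of the mean TPM was 660 over the 56 members on 5 to 7 rows, 465 over the 37 on 8 to 10 rows, 642 over the 17 on 11 to 17 rows and 60.1 over the 4 on 29 or more rows. Spearman's rho between rows and mean TPM was -0.12 over the 114 members, while over all 530 fragments, which share the same libraries, it was 0.44. The 183 fragments on 1 row had a median of 182 TPM, and members as a whole had 512 TPM, against 321 TPM over the 416 other fragments. At the limit of the rule, the 18 members on 5 rows had a median of 762 TPM with 15 listed in all libraries, and the 17 fragments on 4 rows, after the same exclusions, had 516 TPM with 10 listed in all.

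**Figure D1:**
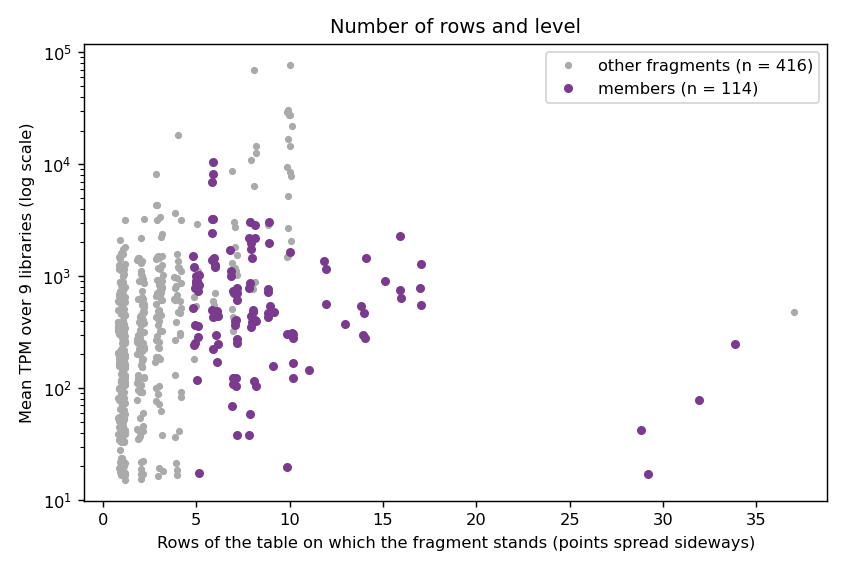
Mean TPM over the 9 libraries (log axis) against the number of rows on which a fragment stands, for the 114 members and the 416 other fragments; points are spread sideways so that they do not hide each other. The most abundant members stood on 6 rows, and the 4 members on 29 or more rows had a median of 60.1 TPM.

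The 5 members on the most rows included some of the least often listed. The fifth place was shared by 3 members on 17 rows, of which the most abundant is given. AS-tDR-008615, on 34 rows, had 210, 222 and 293 TPM in ICH + BYHWD, 205, 149 and 229 TPM in ICH, and 364, 319 and 251 TPM in sham. Every sham library lay above every ICH library, and the log2 fold change of ICH over sham was -0.54 (SE 0.35, adjusted p = 0.587, edgeR's quasi-likelihood test with Benjamini-Hochberg adjustment). AS-tDR-008425, on 32 rows, was listed at 0, 151 and 155 TPM in ICH + BYHWD, at 0 in all 3 ICH libraries, and at 213, 183 and 0 TPM in sham. Its values above 0 lay close to the listing minimum, and its fitted fold against the unlisted ICH group (adjusted p = 0.507 for ICH over sham) is no estimate of size and is not given. On 29 rows each, AS-tDR-007598 was listed only in ICH 1 and ICH 2, at 158 and 222 TPM, and AS-tDR-008349 only in sham 1, at 155 TPM. AS-tDR-001008, on 17 rows, had 1836, 1505 and 1307 TPM in ICH + BYHWD, 949, 660 and 1317 TPM in ICH, and 1668, 1295 and 1132 TPM in sham. Its 3 groups overlapped, with ICH 2 lowest. The first 4 of these members belong to the same set of row neighbours, as defined below, as AS-tDR-008475, whose level was far higher.

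Fragments that followed each other at 2 or more places of the tables were joined into sets, and the members fell into 18 of them. Within a set the order of rows repeated. AS-tDR-001008 was followed by AS-tDR-001009 at 17 places, and AS-tDR-001009 by AS-tDR-001010 at 16 places. The set led by AS-tDR-001262 held 9 members on 6 to 8 rows, and 8 of its successions, such as AS-tDR-007247 before AS-tDR-001260 and AS-tDR-000550 before AS-tDR-009999, each stood at 6 places. In the set led by AS-tDR-001214, 7 members on 12 to 15 rows followed each other at 11 to 14 places per succession. Members of 1 set should therefore not be read as separate evidence, but the counts, percentages and medians below take each member singly. Whether members of a set share sequence was not examined here.

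Together the 114 members held 13.2, 11.3 and 11.6% of all tags in ICH + BYHWD, 11.1, 10.6 and 11.7% in ICH, and 10.1, 9.85 and 10.7% in sham. The means were 12.0 ± 1.05% in ICH + BYHWD, 11.2 ± 0.554% in ICH and 10.2 ± 0.453% in sham (SD, n = 3 each). Every ICH + BYHWD library lay above every sham library, and the ICH libraries overlapped with both groups. Without the most abundant member, AS-tDR-008347, the shares were 10.98 ± 1.03% in ICH + BYHWD, 9.63 ± 1.41% in ICH and 9.64 ± 0.181% in sham. Every ICH + BYHWD library still lay above every sham library without that member. Over all 163 fragments on 5 or more rows, before the exclusions, the shares were 53.1 ± 1.35% in ICH + BYHWD, 58.2 ± 6.19% in ICH and 53.8 ± 2.86% in sham, another order of means. With each row counted, repeats included, the members made up 18.3 ± 2.36% of the row sums in ICH + BYHWD, 15.2 ± 2.63% in ICH and 15.4 ± 0.663% in sham. The number of members listed was 103, 102 and 102 in ICH + BYHWD, 99, 101 and 103 in ICH, and 97, 95 and 98 in sham.

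**Figure D2:**
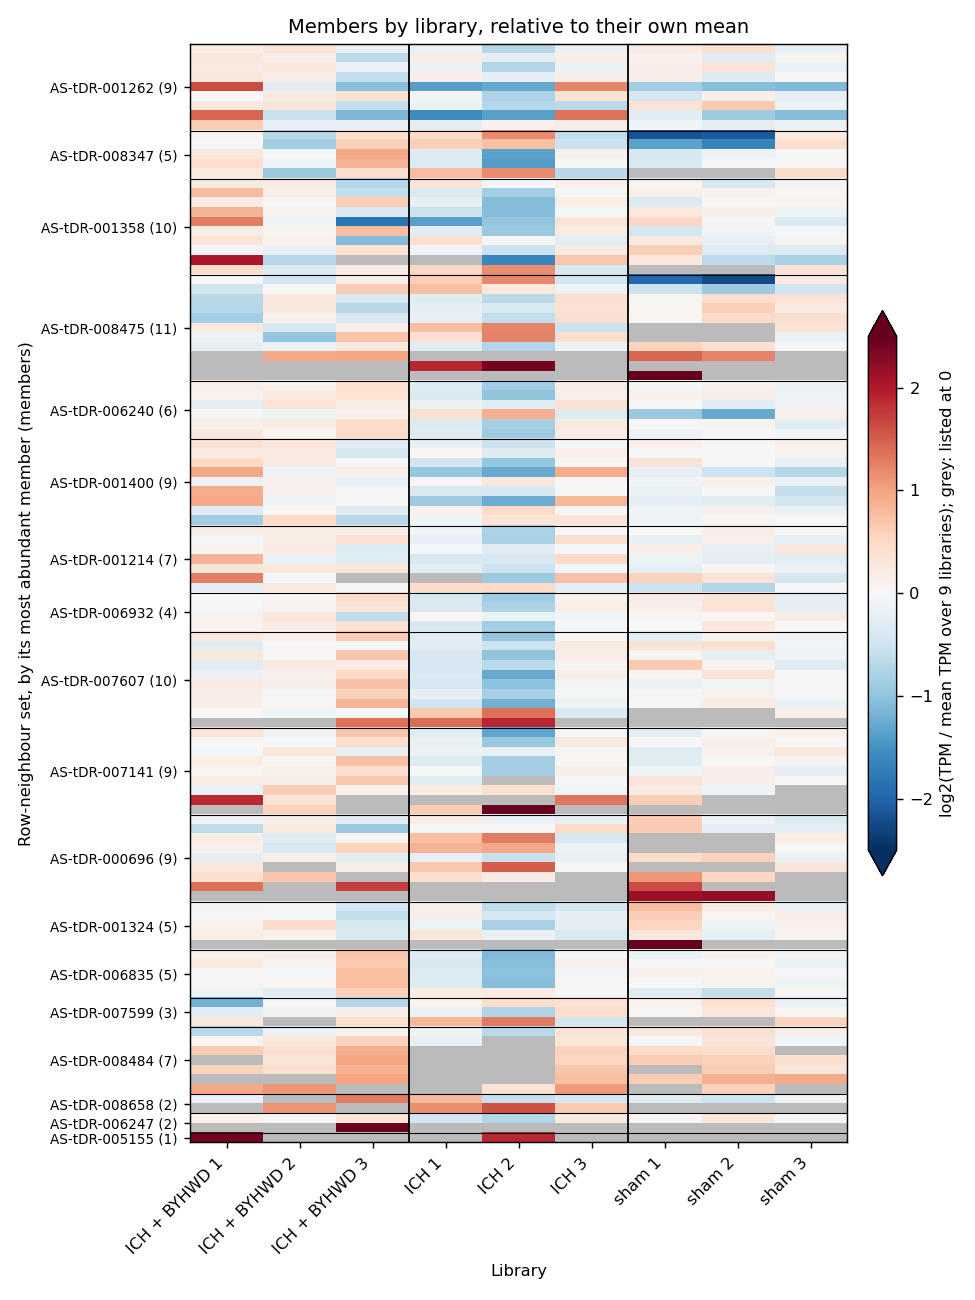
Each of the 114 members (lines, ordered by set and named by the set's most abundant member with its number of members) in the 9 libraries (columns), coloured by log2 of its TPM over its own mean over the 9 libraries; grey marks a listing at 0. The column of ICH 2 is lowest for 49 of the 81 members listed in all libraries.

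The set led by AS-tDR-001262 was the largest by level, at 3.32 ± 0.945% of tags in ICH + BYHWD, 2.80 ± 0.759% in ICH and 2.95 ± 0.260% in sham (SD, n = 3 each). Its lead, AS-tDR-001262, had 9135, 10059 and 7322 TPM in ICH + BYHWD, 7354, 4947 and 7278 TPM in ICH, and 9357, 10654 and 7019 TPM in sham. The groups overlapped, and ICH 2 was the lowest library. AS-tDR-007241 had 3802, 3952 and 2927 TPM in ICH + BYHWD, 2922, 1960 and 2927 TPM in ICH, and 3652, 4131 and 2869 TPM in sham, with sham 2 and ICH + BYHWD 2 highest and ICH 2 lowest in both members. The ratio of AS-tDR-001262 to AS-tDR-007241 stayed between 2.40 and 2.58 in the 9 libraries, although AS-tDR-001262 itself varied 2.15-fold across them.

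A second pair in that set had another course. AS-tDR-001260 had 8448, 7725 and 4450 TPM in ICH + BYHWD, 7923, 5907 and 7689 TPM in ICH, and 7522, 5770 and 7281 TPM in sham. AS-tDR-007247, its neighbour at 6 places, had 3946, 3624 and 2121 TPM in ICH + BYHWD, 3651, 2728 and 3604 TPM in ICH, and 3599, 2601 and 3242 TPM in sham. Both were lowest in ICH + BYHWD 3, and their ratio stayed between 2.09 and 2.25. By contrast, the ratio of AS-tDR-001262 to AS-tDR-001260 ran from 0.837 in ICH 2 to 1.85 in sham 2. These pairs were chosen after their values were seen, and their ratios are a description.

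AS-tDR-008347, on 6 rows, was the most abundant member and one of the most variable. It had 10988, 6524 and 14091 TPM in ICH + BYHWD, 14778, 23946 and 6887 TPM in ICH, and 2360, 2468 and 12377 TPM in sham. Sham 1 and sham 2 were the lowest of the 9 libraries and sham 3 was among the high ones, so the groups overlapped. AS-tDR-008475, on 8 rows and in another set, had 3074, 2202 and 3404 TPM in ICH + BYHWD, 4692, 7026 and 2211 TPM in ICH, and 787, 650 and 3615 TPM in sham. It showed the same high and low sham libraries, and the ratio of AS-tDR-008347 to AS-tDR-008475 was 2.96 to 4.14. Its highest value was 10.8 times its lowest, the widest range among the 81 members listed in all libraries, whose median was 2.53-fold and whose narrowest was 1.39-fold, in AS-tDR-007389 (655 to 911 TPM).

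The last of the 8 most abundant members differed less between libraries than AS-tDR-008347 and AS-tDR-008475 did. AS-tDR-001358, on 9 rows, had 3533, 3516 and 1869 TPM in ICH + BYHWD, 3848, 2927 and 3303 TPM in ICH, and 3193, 2314 and 2886 TPM in sham. AS-tDR-006240, on 8 rows, had 3186, 3125 and 3880 TPM in ICH + BYHWD, 2322, 1588 and 3284 TPM in ICH, and 2835, 3126 and 2600 TPM in sham. In both the groups overlapped, with ICH + BYHWD 3 lowest in the first case and highest in the second.

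**Figure D3:**
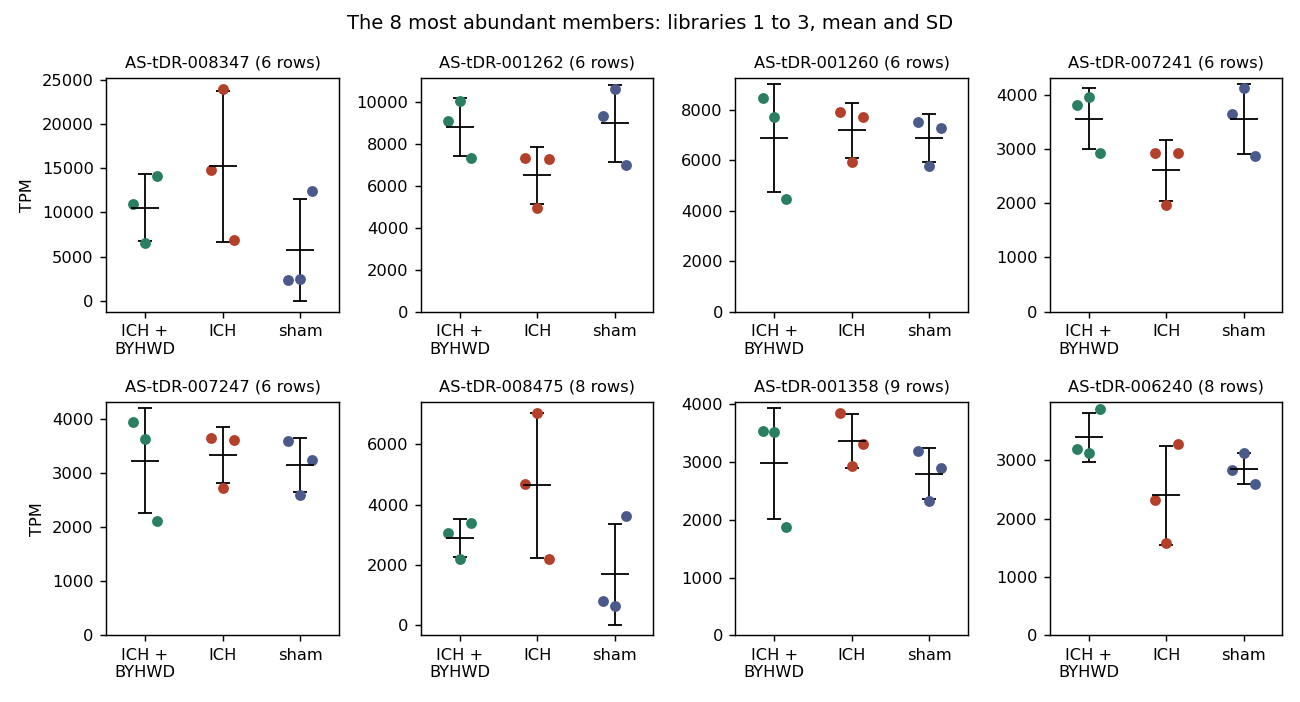
TPM of the 8 most abundant members; each point is 1 library, ordered from 1 to 3 within a group, and the bars give the mean and SD of the 3 libraries. In AS-tDR-008347 and AS-tDR-008475 sham 1 and sham 2 sit below the other 7 libraries, and no member shown separates the 3 groups.

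Across sets, the same libraries were extreme. Of the 18 sets, 12 had their lowest summed share in ICH 2 and 4 had their highest there. The 4 were those led by AS-tDR-008347 (1.41 ± 0.519% of tags in ICH + BYHWD, 1.85 ± 0.909% in ICH and 0.798 ± 0.694% in sham), AS-tDR-008475, AS-tDR-000696 and AS-tDR-007599. AS-tDR-008347 alone made up 78.2% of its set. AS-tDR-000696, on 8 rows, had 798, 974 and 724 TPM in ICH + BYHWD, 1000, 793 and 767 TPM in ICH, and 1332, 803 and 689 TPM in sham, with overlap throughout. Among the 81 members listed in all libraries, ICH 2 was the lowest library on the TPM scale for 49 (60.5%), against 134 of 230 other fragments listed in all (58.3%). ICH + BYHWD 3 was the highest for 27 (33.3%), against 74 of the others (32.2%).

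Other set leads had the following levels. AS-tDR-001400, on 16 rows, had 2914, 2748 and 1858 TPM in ICH + BYHWD, 1964, 1569 and 2202 TPM in ICH, and 2423, 2240 and 2457 TPM in sham, with every ICH library below every sham library in TPM. After scaling, its log2 fold change of ICH over sham was -0.17 (SE 0.21, adjusted p = 0.838 in edgeR). AS-tDR-001214, on 14 rows, had 1662, 1658 and 1639 TPM in ICH + BYHWD, 1386, 850 and 1445 TPM in ICH, and 1467, 1673 and 1426 TPM in sham, with every ICH + BYHWD library above every ICH library in TPM. After scaling, its log2 fold change of ICH + BYHWD over ICH was 0.15 (SE 0.15, adjusted p = 0.729 in edgeR). AS-tDR-001324, on 10 rows, had 1700, 1641 and 1222 TPM in ICH + BYHWD, 1777, 1045 and 1196 TPM in ICH, and 2779, 1871 and 1449 TPM in sham. Its level was highest in sham 1 and the groups overlapped. AS-tDR-006932 ranged over 1735 to 2354 TPM in ICH + BYHWD, 950 to 1834 TPM in ICH and 1488 to 2151 TPM in sham. AS-tDR-007141 ranged over 910 to 1609 TPM in ICH + BYHWD, 401 to 1036 TPM in ICH and 848 to 1106 TPM in sham, and both had overlapping groups and their lowest value in ICH 2.

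ICH against sham asks what the haemorrhage was associated with at day 21. No member passed an adjusted p of 0.05 in either direction, nor did any of the 455 fragments tested (0%), by edgeR's quasi-likelihood test with Benjamini-Hochberg adjustment. The filter on low counts had left 108 members, and the smallest adjusted p among them was 0.507. Before adjustment, 3 members were higher in ICH at a p under 0.05 (5.27% of all fragments tested) and 1 was lower (3.74% of all). In both directions together these were 3.70% of the members, against 9.01% of all fragments tested. The TPM of ICH lay wholly above sham in 3 members (2.78%, against 4.84% of all tested) and wholly below in 9 (8.33%, against 8.35%), which makes 12 members (11.1%, against 13.2%).

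The member with the smallest p was AS-tDR-008621, on 8 rows, with 1598, 2224 and 3368 TPM in ICH + BYHWD, 3714, 2622 and 2006 TPM in ICH, and 1507, 1165 and 1545 TPM in sham. In TPM, without scaling, all ICH and all ICH + BYHWD libraries lay above the 3 sham libraries. The log2 fold change of ICH over sham was 1.18 (SE 0.37, unadjusted p = 0.0131, adjusted p = 0.507), and DESeq2 gave an adjusted p of 0.0218. AS-tDR-007349, on 7 rows, had 1090, 1028 and 1203 TPM in ICH + BYHWD, 1444, 2093 and 874 TPM in ICH, and 586, 463 and 1217 TPM in sham. Here sham 3 overlapped with ICH, and the log2 fold change was 1.23 (SE 0.53, adjusted p = 0.507). AS-tDR-007504, on 5 rows, was at 0, 253 and 0 TPM in ICH + BYHWD, at 262, 355 and 184 TPM in ICH, and at 0 in the 3 sham libraries, and its fitted fold against the unlisted sham group (unadjusted p = 0.0387, adjusted p = 0.507) is no estimate of size and is not given.

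AS-tDR-007703, on 5 rows, was the lower member with the smallest p. It had 790, 839 and 960 TPM in ICH + BYHWD, 563, 406 and 727 TPM in ICH, and 751, 895 and 746 TPM in sham. The ICH libraries lay below the libraries of both other groups, with a log2 fold change of ICH over sham of -0.38 (SE 0.14, unadjusted p = 0.0235, adjusted p = 0.507). AS-tDR-009588, on 7 rows, had 360, 430 and 569 TPM in ICH + BYHWD, 314, 167 and 444 TPM in ICH, and 416, 505 and 407 TPM in sham. ICH 3 overlapped with sham, and the log2 fold change was -0.45 (SE 0.23, adjusted p = 0.508).

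The number of calls for ICH over sham depended on sham 3. This library had the fewest tags of the 9, 530827, with 77.1% of them in listed fragments, against 71.2 and 71.3% in sham 1 and sham 2. Its TMM factor was 0.943, against 1.07 and 1.08. The part of these traits in the calls was not tested. Without that library, 11 of 111 members passed an adjusted p of 0.05, all of them higher in ICH, among 44 of the 479 fragments then tested. Of the 11, 7 were at 0 in sham 1 and sham 2, and 4 were listed in all libraries: AS-tDR-008347 (log2 fold change 2.74, adjusted p = 0.0116, against 1.70 and 0.508 with all 9 libraries), AS-tDR-008475 (2.77 and 0.00785, against 1.74 and 0.507), AS-tDR-007349 (1.56 and 0.0379) and AS-tDR-008734 (1.93 and 0.0371). When sham 3 was left out and only fragments above 0 in all libraries were fitted, no member passed, among 2 of 311 fragments that did, and 9 of 81 members had an unadjusted p under 0.05, among 67 of 311 fragments. DESeq2 on all libraries called 5 of 108 members, 4 of which had a listing at 0, among 27 of 455 fragments.

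ICH + BYHWD against ICH asks what the decoction was associated with after the haemorrhage, and it shares the ICH libraries with the comparison above. No member and none of the 455 fragments (0%) passed an adjusted p of 0.05 in edgeR, and the smallest adjusted p among members was 0.533. At an unadjusted p under 0.05, 6 members were higher in ICH + BYHWD (4.4% of all fragments tested) and 2 were lower (2.2% of all), together 7.41% of the members against 6.59% of all fragments. The TPM of ICH + BYHWD lay wholly above ICH in 10 members (9.26%, against 11.4%) and wholly below in 2 (1.85%, against 1.32%), 12 members in all (11.1%, against 12.7%).

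Several of the members with the smallest p stood in the set led by AS-tDR-007607, which holds 10 members. The set did not move as a whole. Log2 fold changes over ICH were -0.23 for AS-tDR-007769, -1.23 for AS-tDR-009450 and -1.87 for AS-tDR-010013, and positive for the rest of the set. AS-tDR-010013 was listed in only 3 libraries. AS-tDR-006040, on 8 rows, had 454, 434 and 657 TPM in ICH + BYHWD, 294, 194 and 377 TPM in ICH, and 358, 378 and 396 TPM in sham. Its ICH + BYHWD libraries lay above the other 6, and the log2 fold change over ICH was 0.57 (SE 0.18, unadjusted p = 0.0142, adjusted p = 0.533). AS-tDR-006942, on 8 rows, had 394, 364 and 630 TPM in ICH + BYHWD, 249, 153 and 324 TPM in ICH, and 340, 392 and 315 TPM in sham, with a log2 fold change over ICH of 0.67 (SE 0.23, adjusted p = 0.533). The ICH + BYHWD libraries lay above ICH and overlapped with sham. The lead, AS-tDR-007607, had 923, 847 and 1203 TPM in ICH + BYHWD, 635, 396 and 807 TPM in ICH, and 658, 821 and 731 TPM in sham, with a log2 fold change over ICH of 0.43 (SE 0.17, adjusted p = 0.533).

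Outside that set, AS-tDR-006135, on 7 rows, had 831, 737 and 1105 TPM in ICH + BYHWD, 525, 338 and 766 TPM in ICH, and 699, 709 and 631 TPM in sham. ICH 3 overlapped with ICH + BYHWD, and the log2 fold change over ICH was 0.46 (SE 0.18, adjusted p = 0.533). Its row neighbour AS-tDR-006835, also on 7 rows, had 763, 772 and 1154 TPM in ICH + BYHWD, 563, 329 and 744 TPM in ICH, and 632, 748 and 661 TPM in sham. Here every ICH + BYHWD library lay above the other 6. AS-tDR-007703, described above, had a log2 fold change of ICH + BYHWD over ICH of 0.33 (SE 0.14, adjusted p = 0.533).

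In the other direction, AS-tDR-007599, on 5 rows, had 440, 981 and 604 TPM in ICH + BYHWD, between 1072 (ICH 1) and 1352 TPM (ICH 2) in ICH, and 1061, 1333 and 893 TPM in sham. Every ICH + BYHWD library lay below every ICH library, with a log2 fold change of -1.23 (SE 0.35, unadjusted p = 0.0073, adjusted p = 0.533), and DESeq2 gave an adjusted p of 0.0193. AS-tDR-009560, on 5 rows, had 289, 355 and 292 TPM in ICH + BYHWD, 388, 502 and 360 TPM in ICH, and 336, 386 and 322 TPM in sham. Again ICH + BYHWD lay below ICH, with a log2 fold change of -0.80 (SE 0.29, adjusted p = 0.533). AS-tDR-010097, on 6 rows, had 313, 579 and 255 TPM in ICH + BYHWD, 473, 482 and 679 TPM in ICH, and 761, 415 and 416 TPM in sham, with overlap and a log2 fold change of -0.81 (SE 0.36, adjusted p = 0.533).

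ICH + BYHWD against sham shares its libraries with both comparisons above. No member and none of the 455 fragments (0%) passed an adjusted p of 0.05 in edgeR, and the smallest adjusted p among members was 0.749. Before adjustment, 0 members were higher at a p under 0.05 (0.22% of all fragments tested) and 6 were lower (3.96% of all), together 5.56% of the members against 4.18% of all fragments. The TPM of ICH + BYHWD lay wholly above sham in 11 members (10.2%, against 7.47%) and wholly below in 2 (1.85%, against 3.08%), AS-tDR-008484 and AS-tDR-001326. These are 13 members together (12.0%, against 10.5%). Without sham 3, 7 of 111 members passed an adjusted p of 0.05, among 17 of 479 fragments, all 7 higher in ICH + BYHWD and at 0 in sham 1 and sham 2. DESeq2 on all libraries called 3 of 108 members, each with listings at 0, among 19 of 455 fragments.

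AS-tDR-008484, on 7 rows, had 383, 562 and 663 TPM in ICH + BYHWD, 581, 388 and 771 TPM in ICH, and 733, 807 and 678 TPM in sham. Its ICH + BYHWD libraries lay below sham, with a log2 fold change of -0.63 (SE 0.20, unadjusted p = 0.0133, adjusted p = 0.749). AS-tDR-008000, on 5 rows, had 510, 987 and 694 TPM in ICH + BYHWD, 798, 596 and 1201 TPM in ICH, and 940, 1277 and 1223 TPM in sham, with a log2 fold change of -0.81 (SE 0.26, adjusted p = 0.749). AS-tDR-007769, on 7 rows, had 592, 727 and 721 TPM in ICH + BYHWD, 599, 509 and 853 TPM in ICH, and 911, 975 and 699 TPM in sham, with a log2 fold change of -0.50 (SE 0.16, adjusted p = 0.749). Both overlapped with sham, through 1 library of ICH + BYHWD in AS-tDR-008000 and 2 in AS-tDR-007769.

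AS-tDR-000063 was even across the treated libraries. On 14 rows, it had 586, 576 and 579 TPM in ICH + BYHWD, 396, 332 and 462 TPM in ICH, and 398, 498 and 422 TPM in sham. Every ICH + BYHWD library lay above the other 6, with a log2 fold change of 0.24 over sham (SE 0.13, adjusted p = 0.997) and 0.25 over ICH (SE 0.13, adjusted p = 0.533). AS-tDR-006217, on 12 rows, had 632, 607 and 957 TPM in ICH + BYHWD, 464, 300 and 645 TPM in ICH, and 416, 534 and 550 TPM in sham. Its ICH + BYHWD libraries lay above sham only, with a log2 fold change of 0.38 (SE 0.21, adjusted p = 0.997).

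A test of any difference among the 3 groups gave no member past an adjusted p of 0.05 (0% of all fragments tested), and 7 members had an unadjusted p under 0.05, or 6.48% of the members against 6.37% of all fragments. The median log2 fold change over the 108 members tested was -0.11 for ICH over sham, 0.07 for ICH + BYHWD over ICH and 0.08 for ICH + BYHWD over sham, beside -0.02, -0.09 and 0.06 over all 455 fragments. With fragments at 0 in a whole group set at the fold that the listing minimum allows, the members' medians were -0.06, 0.03 and 0.06. Over the 81 members listed in all libraries, the medians were -0.15, 0.10 and 0.02, beside -0.03, -0.05 and 0.03 over all 311 such fragments.

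**Figure D4:**
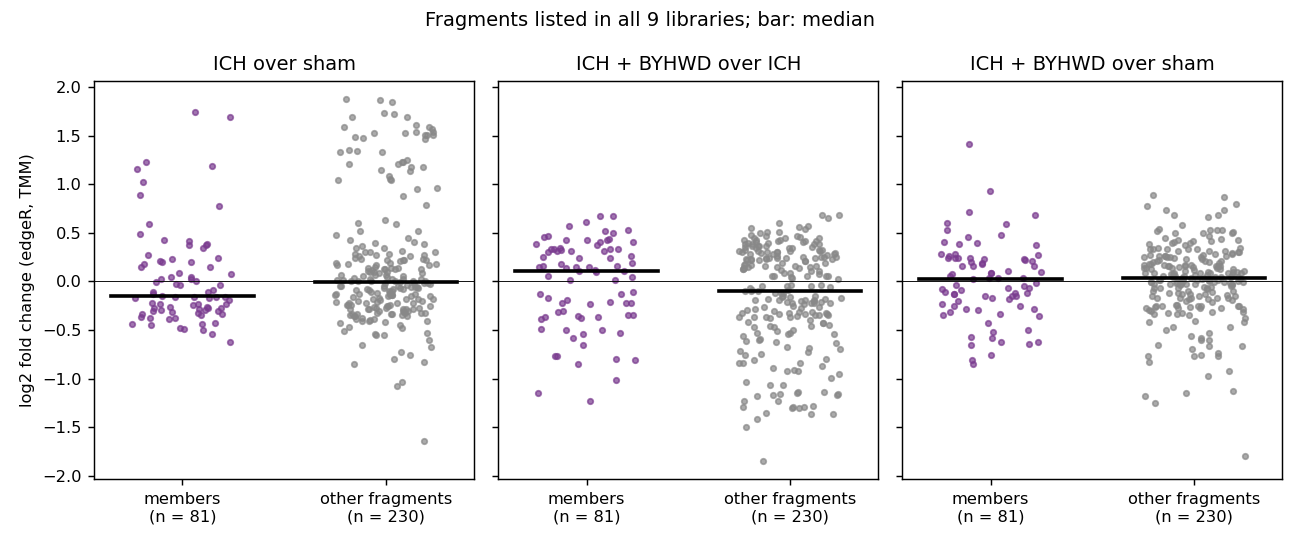
Log2 fold changes after TMM scaling for the 81 members listed in all 9 libraries and the 230 other fragments listed in all, in the 3 comparisons; each point is 1 fragment and the bar is the median. The members' medians are -0.15, 0.10 and 0.02 from left to right, and none of the points passed an adjusted p of 0.05.

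Many members varied between libraries in ways that cut across the groups. The patterns below were named after the values were seen and carry no test, and a member can stand in more than 1 of them. ICH 2 was the highest library in 21 members (18.4%, against 22.4% of the 416 other fragments). In 14 members (12.3%, against 10.8% of the 416 other fragments) sham 1 and sham 2 lay below the other 7 libraries, among them AS-tDR-008347, AS-tDR-008475, AS-tDR-008621, AS-tDR-007349 and AS-tDR-008734. Their summed share of tags was 2.15, 1.51 and 2.80% in ICH + BYHWD, 3.14, 4.46 and 1.55% in ICH, and 0.617, 0.551 and 2.41% in sham. Sham 3 stood among the ICH + BYHWD and ICH libraries in this sum.

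In 9 of the members (7.89%, against 3.37% of the other fragments) sham 1 and sham 2 were at 0 while sham 3 and all ICH libraries were listed. AS-tDR-001955, on 8 rows, had 569, 351 and 515 TPM in ICH + BYHWD, 794, 1099 and 333 TPM in ICH, and 0, 0 and 610 TPM in sham. AS-tDR-009507, on 9 rows, had 485, 357 and 450 TPM in ICH + BYHWD, 735, 1064 and 321 TPM in ICH, and 0, 0 and 490 TPM in sham. In both, sham 3 lay within the range of the 6 ICH + BYHWD and ICH libraries, and these examples were chosen after their values were seen. The 9 members belong to 6 sets.

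In another 9 members (7.89%, against 5.29% of the other fragments) ICH + BYHWD 1 and ICH 3 lay above the other 7 libraries. AS-tDR-000550, on 6 rows, had 7493, 2023 and 1176 TPM in ICH + BYHWD, 935, 1008 and 5642 TPM in ICH, and 1339, 1166 and 1134 TPM in sham. Its neighbour AS-tDR-009999, at 6 places, had 3821, 952 and 642 TPM in ICH + BYHWD, 473, 547 and 3562 TPM in ICH, and 1163, 754 and 663 TPM in sham. The 9 members held 1.98, 0.649 and 0.474% of tags in ICH + BYHWD, 0.354, 0.415 and 1.53% in ICH, and 0.647, 0.508 and 0.469% in sham. High and low libraries thus occurred within both groups that had a haemorrhage. AS-tDR-001009 and AS-tDR-001010, on 17 rows each, were among the 9, while AS-tDR-001008, which precedes them at 17 places, was not.

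The pattern with the most members was lowest in ICH 2 and highest in ICH + BYHWD 3, with 28 members (24.6%, against 20.0% of the other fragments). It included AS-tDR-006240 and all 6 members that were higher in ICH + BYHWD than in ICH at an unadjusted p under 0.05 in edgeR. These 6 were AS-tDR-006040, AS-tDR-006942, AS-tDR-006135, AS-tDR-007607, AS-tDR-007703 and AS-tDR-007136. The sum over the 28 members was 2.44, 2.39 and 3.27% of tags in ICH + BYHWD, 1.82, 1.12 and 2.46% in ICH, and 2.10, 2.40 and 2.10% in sham. ICH 2 also had the highest library share in listed fragments, 80.6%, and the lowest TMM factor, and their part in these values was not tested.

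**Figure D5:**
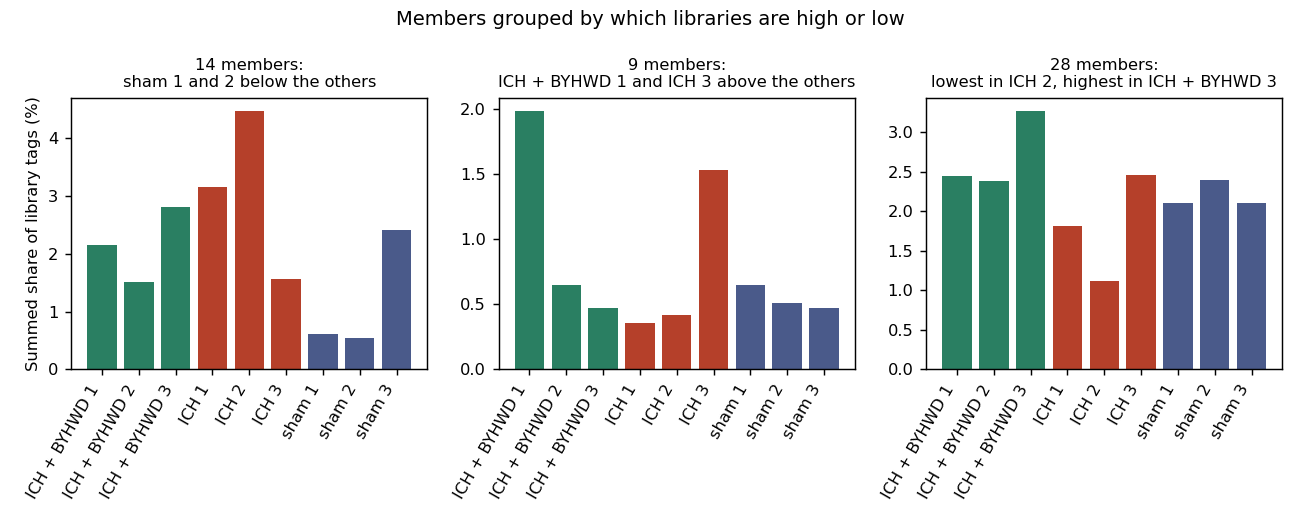
Summed share of library tags (%) in each of the 9 libraries for 3 groups of members named after their values were seen: 14 with sham 1 and sham 2 lowest, 9 with ICH + BYHWD 1 and ICH 3 highest, and 28 lowest in ICH 2 and highest in ICH + BYHWD 3. In the left panel sham 3 stands at 2.41%, beside 0.617 and 0.551% in sham 1 and sham 2.

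The remaining members near the listing minimum had values in few libraries. AS-tDR-000100 was listed only in ICH + BYHWD 3, at 157 TPM, and AS-tDR-001313 only in sham 1, at 178 TPM. AS-tDR-005155 was listed in ICH + BYHWD 1 at 204 TPM and in ICH 2 at 142 TPM, and AS-tDR-008267 in sham 1 and sham 2 at 170 and 176 TPM. With AS-tDR-007598 and AS-tDR-008349, these are the 6 members that did not pass the filter on low counts, and presence below the listing minimum cannot be read from the tables.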

How the data were processed

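Each of the 9 small RNA libraries has 1 table of identifiers, tag counts and TPM. The authors deposited raw whole-number counts. TPM, named so in the file headers and deposited beside the counts, is another unit than strict TPM: each value equals the deposited count over 1 library total, times 1000000, and repeated rows make the column sum to more. FastQC, cutadapt, Novoalign 2.07.11 and the build hg19, a human assembly, are named in the submitters' processing notes; neither their roles nor how tags were counted is stated in the labels or files used here.

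One row per fragment was kept. edgeR 4.0.16 (R 4.3.3) fitted all 9 libraries with TMM factors, filterByExpr by group (minimum count 10) and a robust quasi-likelihood fit; 455 of 530 fragments were tested, with Benjamini-Hochberg adjustment over all of them and a threshold of 0.05. Each SE comes from the F statistic of its fold change and so restates the unadjusted p. The steps were run on simulated counts drawn without a listing minimum, so that run does not cover zeros made by such a minimum. Its recovery rates are not given here, and the fold that 3 libraries a group could detect is not stated. No pair of libraries was a duplicate (lowest chi-square per degree of freedom 44.4). Library numbers only name libraries in accession order. Members and lists were chosen with earlier results of these data known. Named were the 3 higher and 3 lower members with the smallest p per comparison, the 8 most abundant, the 5 on the most rows and the lead of each set of 4 or more members, and any other member named was chosen after its values were seen. Alternatives covered scaling, filters, zeros, tests (DESeq2 1.42.0, limma 3.58.1), membership and leaving out each library. No sequence is printed, since the tables used here pair none with the identifiers.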

Additional observations from a re-analysis of the deposited data

How the results depend on the processing

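No member passed an adjusted p of 0.05 under any alternative except 2. DESeq2 called 5 members for ICH over sham (4 higher, 1 lower), 2 for ICH + BYHWD over ICH (1 higher, 1 lower) and 3 for ICH + BYHWD over sham (all higher), 6 different members of which 4 had listings at 0; over all 455 fragments it called 27, 10 and 19. Leaving out 1 library gave 0 to 11, 0 to 0, 0 to 7 and, for any difference, 0 to 9 called members, and every value above 0 came from leaving out sham 3. Unadjusted counts, 4, 8, 6 and 7 in all libraries, ran from 1 to 18, 2 to 17, 0 to 14 and 0 to 14 when a library was left out. The highest came without sham 3 (18 for ICH over sham, 14 for ICH + BYHWD over sham and 14 for any difference) and without ICH 3 (17), and the lowest without ICH 1 (2 for ICH + BYHWD over ICH) or without sham 1 or sham 2 (1, 0 and 0; also ICH 2 for the first and ICH 1 for ICH + BYHWD over sham). The unadjusted counts also moved with all 9 libraries kept. In the same order, they were 12, 18, 13 and 15 in DESeq2 and 13, 8, 14 and 13 in limma with trend. Where zeros took the lowest listed value they were 11, 14, 4 and 7, and with no scaling 4, 7, 2 and 0. With no scaling, the median of all fragments was -0.23 for ICH over sham, 0.22 for ICH + BYHWD over ICH and 0.19 for ICH + BYHWD over sham, and that of the members was -0.28, 0.34 and 0.21. The members' median for ICH + BYHWD over ICH ran from -0.13 (without ICH + BYHWD 1) to 0.22 when 1 library was left out. It was -0.15 when all 163 fragments on 5 or more rows were taken and 0.34 with no scaling, so its sign depends on these choices. Of 42 named fold changes under 916 alternative values, 879 kept direction and side, 7 passed the threshold and 30 turned direction. The turned values lay between -0.021 and 0.28. With no scaling they were -0.019 (AS-tDR-001260, ICH over sham), -0.0044, 0.016 and 0.011 (AS-tDR-007247, in the order of comparisons above) and 0.061 (AS-tDR-001358, ICH + BYHWD over sham). For ICH + BYHWD over sham, AS-tDR-007247 was 0.0013 with recovered library totals and 0.011 without the filter, and AS-tDR-001358 was 0.049, 0.063 and, where zeros took the lowest listed value, 0.017. Leaving out 1 library, or ICH + BYHWD 1 and ICH 3 together (chosen after seeing the data), ICH + BYHWD over ICH was -0.016 to 0.43 for AS-tDR-001262 and -0.021 to 0.44 for AS-tDR-007241, with both values below 0 from leaving out both. ICH over sham was -0.014 to 0.38 for AS-tDR-001260 and -0.0088 to 0.39 for AS-tDR-007247. ICH + BYHWD over sham was -0.21 to 0.064 for AS-tDR-001262, -0.34 to 0.18 for AS-tDR-001260, -0.21 to 0.085 for AS-tDR-007241, -0.30 to 0.21 for AS-tDR-007247 and -0.22 to 0.28 for AS-tDR-001358. The cause was not tested. No paired analysis was possible because the labels name no pairing of libraries across groups. A count below the listing minimum cannot be read, which limits the 33 members with a 0.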
